A study of Sus scrofa with 6 samples.

Results

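The genes described here encode the proteins of the cytosolic ribosome. They were chosen as the protein-coding genes of the series table whose symbol is RPL or RPS with a number and at most 1 letter A, X, Y or L, or RPLP0, RPLP1, RPLP2 or RPSA. The rule found 80 of 30376 genes, 48 of the large subunit and 32 of the small subunit. They carry 79 symbols, because RPL18 is listed on chromosome 6 and again on chromosome 1, where the copy had no read in any library. Poly(A) RNA of pig embryos at the 4-cell stage was sequenced in 6 libraries for a study of high temperature and the switch from stored oocyte mRNA to transcription by the embryo. The 3 high-temperature libraries, with the label HT as genotype, came from culture at 41.5 °C. The 3 control libraries, with the label WT, came from culture at 38.5 °C. All embryos developed from oocytes that were activated electrically (2 pulses of direct current, 120 V, 60 µs each), and no fertilisation step is named. Culture lasted 4 days in PZM-5 with 4 mg/mL BSA under mineral oil and 5% CO2. About 300 samples at this stage went into lysis buffer, so each library pools many embryos, and the number per library is not stated.

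Each cytosolic ribosome is built from a large subunit, which joins amino acids, and a small subunit, which reads the mRNA, and each subunit holds ribosomal RNA and 1 copy of most of its proteins. In mammals the mRNAs of nearly all these proteins start with a run of pyrimidines (the TOP motif), through which growth signals raise or lower their translation together. Oocytes store such mRNAs for use after activation, and the embryo makes new ones once its own genome is transcribed.

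The libraries held 28114005 to 30079385 reads counted to genes. Of the 80 genes 79 had reads, 78 had enough reads to be tested and 77 averaged at least 10 CPM (counts scaled to a common library size). RPL3L, the striated-muscle paralog of RPL3, had 8 reads in all and was not tested. Oocyte and early embryo markers were present, 10 of 12 at 10 CPM or more, with a summed level of 3140 to 3213 CPM at 41.5 °C and 3413 to 3902 CPM at 38.5 °C. Of the 14 cumulus and granulosa cell markers 13 stand in the table and none reached 10 CPM, and AMH, CYP11A1, FOXL2 and FSHR were at 0. Their summed level was 19.7 to 20.2 CPM at 41.5 °C and 16.2 to 17.1 CPM at 38.5 °C, and their part in any difference below was not tested. Of 11 stromal, epithelial and blood cell markers only EPCAM reached 10 CPM and LUM was at 0. EPCAM had 132, 117 and 107 CPM at 41.5 °C, against 166, 113 and 94.98 CPM at 38.5 °C, and the list summed to 117 to 145 CPM at 41.5 °C and 109 to 178 CPM at 38.5 °C. In both groups EPCAM was highest in replicate 1 and lowest in replicate 3, the order of the ribosomal protein genes described next, and its part in that order was not tested. Of the oocyte markers, OOEP, GDF9, KPNA7, MOS and DAZL ran the other way, rising from replicate 1 to 3 in both groups. OOEP had 60.3, 90.5 and 119 CPM at 41.5 °C, against 68.7, 92.8 and 118 CPM at 38.5 °C. The other oocyte markers held neither order in both groups. The 4 trophectoderm markers summed to 1.56 to 2.74 CPM at 41.5 °C and 1.28 to 2.09 CPM at 38.5 °C. Whether replicates came from separate cultures is not stated, so the p-values rest on a spread between libraries that may be technical.

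Ribosomal protein mRNAs differed several-fold between replicates of the same temperature, and by far less between the temperatures. Their reads made up 1.31%, 0.898% and 0.622% of all counts in high-temperature replicates 1, 2 and 3, and 1.43%, 0.836% and 0.635% in control replicates 1, 2 and 3. The mean share was 0.942 ± 0.344% at 41.5 °C and 0.967 ± 0.413% at 38.5 °C (SD, n = 3 each). The difference of -0.0251 percentage points, high temperature minus control, was far smaller than either SD, and the groups overlapped. Leaving out high-temperature replicate 3 made it 0.135, and leaving out control replicate 1 made it 0.206. It was -0.207 without high-temperature replicate 1, -0.0029 without high-temperature replicate 2, -0.0906 without control replicate 2 and -0.191 without control replicate 3. With mitochondrial and unnamed genes left out of the total it was 0.0197. In pooled embryos such as these, a share that is lower in some embryos cannot be told apart from one lower in all.

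The same replicates were high and low for nearly every gene. Among the 77 genes at 10 CPM or more, high-temperature replicate 1 was the highest of its group for 75 and control replicate 1 was the highest of its group for 75. High-temperature replicate 3 was the lowest of its group for 75 and control replicate 3 for 74. Of all 6 libraries, high-temperature replicate 1 was the highest for 15 genes and control replicate 1 for 62, while high-temperature replicate 3 was the lowest for 49 and control replicate 3 for 26. This split between the temperatures depended in part on the scale, as 1 gene shows. By CPM, RPS20 had 878 in control replicate 1 and 774 in high-temperature replicate 1, but by TPM (scaled by gene length and library) 1906 and 1983. Over the tested genes the median TPM was still higher in control replicate 1, at 299.9, than in high-temperature replicate 1, at 271.7. In 72 of the 77 genes replicate 1 lay above 2 and 2 above 3 at both temperatures, an order shown by 31.0% of 5646 other protein-coding genes at 10 CPM or more. The plot of log2 CPM by library shows this as a bundle of near-parallel lines in each group, with 12 genes lying flatter than the rest.

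**Figure D1:**
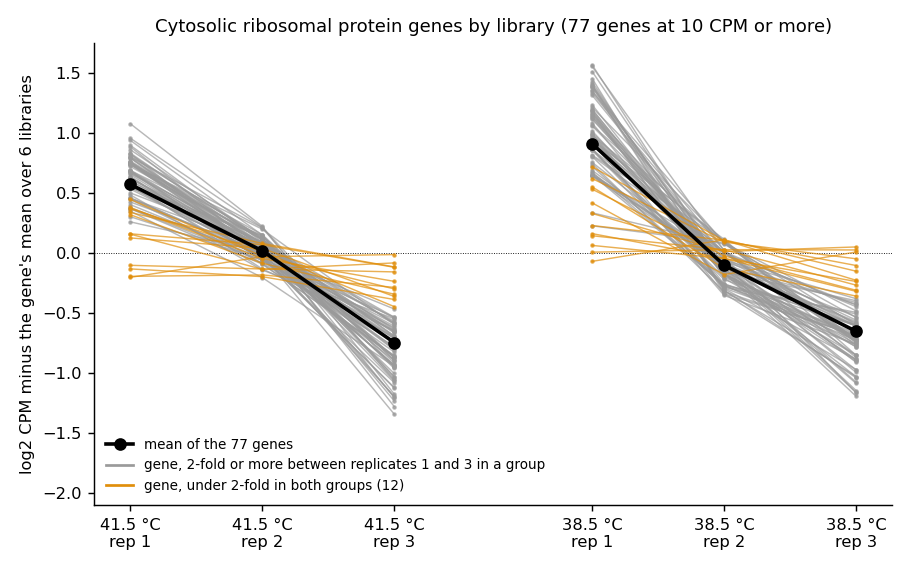
Level of each of the 77 ribosomal protein genes at 10 CPM or more, as log2 CPM minus the gene's own mean over the 6 libraries, in the 3 libraries at 41.5 °C and the 3 at 38.5 °C. Each thin line joins 1 gene within a group, the black line is the mean of the genes, and the 12 orange genes differed less than 2-fold between replicates 1 and 3 in both groups. In both groups replicate 1 lies above and replicate 3 below the mean for nearly all genes.

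No ribosomal protein gene passed the test between the temperatures. By the edgeR quasi-likelihood test 0 of the 78 genes had an adjusted p below 0.05, as had 0 of the 16056 genes tested (0%). At an unadjusted p below 0.05 there were 0 of the 78, against 297 of all genes tested (1.85%). DESeq2 called 5 genes in all, none of them a ribosomal protein gene. The smallest edgeR p of the 78 was 0.0677 and the smallest adjusted p was 0.999923.

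On the count scale 61 of the 78 genes had a log2 fold change below 0, high temperature over control, and 17 above 0. This was 78.2% below 0, against 52.5% of all genes tested. The median log2 fold change was -0.15, beside -0.017 over all genes, and values ran from -0.66 for RPL22 to 0.21 for RPL13. Of the 5646 other protein-coding genes at 10 CPM or more, 3727 were below 0, with a median of -0.080. Among those of up to 600 bases, by the length that counts and FPKM imply, 53 of 67 were below 0 (median -0.28). From 600 to 1000 bases it was 210 of 253 (median -0.24). A shift below 0 was thus not particular to ribosomal protein genes. Large-subunit genes had a median of -0.17 with 36 of 46 below 0, and small-subunit genes -0.14 with 25 of 32 below 0. This direction rested on single libraries and on the scale. Without control replicate 1 the median was 0.40 with 5 genes below 0, and without high-temperature replicate 3 it was 0.15 with 19 below 0. Without high-temperature replicate 1 the median was -0.56, without control replicate 2 it was -0.30 and without control replicate 3 it was -0.48. With the library total as the sole scaling 35 genes were above 0 and 43 below, with a median of -0.020, beside 0.078 over all genes tested. On the log2(FPKM + 1) scale 42 were above and 36 below, with a median of 0.018, beside 0.033 over all genes tested. The median of the family thus lay below that of all genes on these scales too.

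The intervals say how large a change these libraries could have hidden. The 95% interval of the fold change held 0 on the log2 scale for all 78 genes. It lay within 2-fold in either direction for 19 genes (24.4%, against 49.7% of all genes tested) and within 4-fold for 76. The median standard error was 0.47 on the log2 scale, against 0.33 over all genes. Between the groups, 3 of the 78 genes had no overlap of libraries, all lower at 41.5 °C (3.85%), beside 4.05% of all genes tested that were apart and lower. None was apart and higher, beside 3.66% of all genes.

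**Figure D2:**
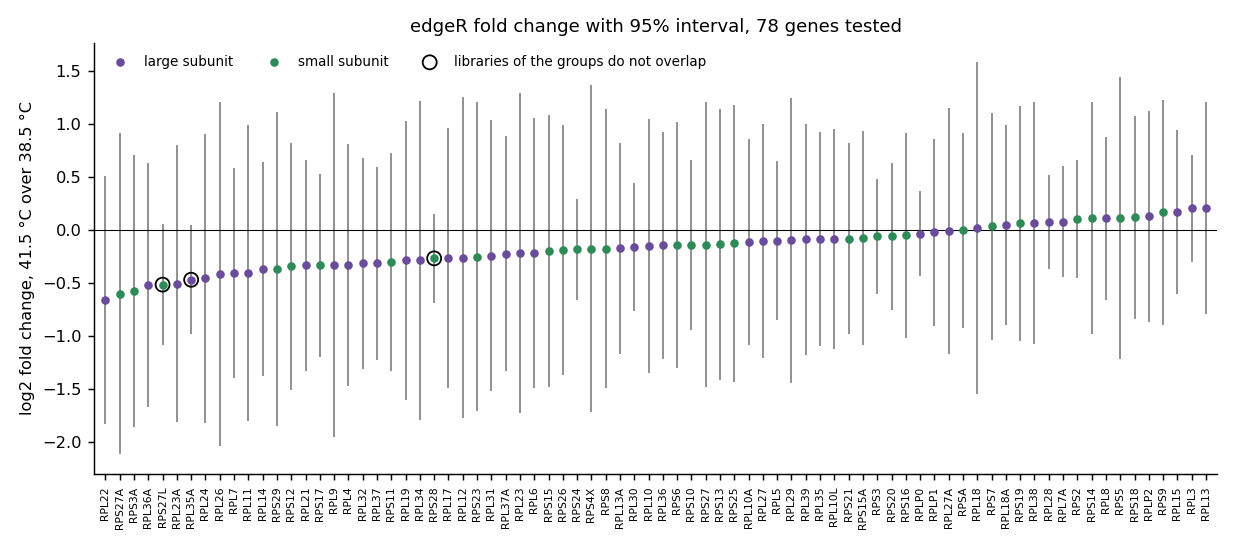
Log2 fold change, 41.5 °C over 38.5 °C, of the 78 tested ribosomal protein genes with 95% intervals from edgeR, sorted by size and coloured by subunit. All intervals cross 0; rings mark the 3 genes whose libraries did not overlap between the groups (RPS27L, RPL35A and RPS28).

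The 3 genes whose groups were apart are the ringed points in the plot of fold changes. RPS27L (chromosome 1, 108881330 to 108886334, Sscrofa11.1), a paralog of RPS27 that is a p53 target in human cells, had 209, 199.8 and 175 CPM at 41.5 °C, against 376, 246 and 213 CPM at 38.5 °C. Control replicate 1 stood above the other 5 libraries, and the heated libraries lay close together. The log2 fold change was -0.52 (SE 0.25, edgeR adjusted p = 0.999923), with an interval from -1.09 to 0.05. RPL35A (chromosome 13, 134588288 to 134591873), a large-subunit protein mutated in some people with Diamond-Blackfan anaemia, had 115, 116 and 108 CPM at 41.5 °C, against 203, 141 and 128 CPM at 38.5 °C. Its log2 fold change was -0.47 (SE 0.22), again with control replicate 1 the highest. RPS28 (chromosome 2, 70953706 to 70954862), a small protein near the path of the mRNA out of the small subunit, had 72.9, 71.4 and 70.2 CPM at 41.5 °C, against 98.3, 79.0 and 81.1 CPM at 38.5 °C. Its log2 fold change was -0.27 (SE 0.18), and the heated libraries differed by less than 3 CPM. RPS28 overlaps NDUFA7 on the other strand, and the library kit does not mark strand, so some of its reads could belong to that gene.

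Levels can be compared between genes per length, in TPM, which scales reads by gene length and library. The mean TPM over the 6 libraries had a median of 191 among the ribosomal protein genes, with 58 genes over 100 TPM and 5 over 500 TPM. RPS20, a protein of the head of the small subunit, was highest at 1597 ± 369.6 TPM at 41.5 °C and 1538 ± 327 TPM at 38.5 °C (SD, n = 3 each). RPL27 followed with 1231 ± 536 TPM at 41.5 °C and 1205 ± 586 TPM at 38.5 °C, so the ranges of mean ± SD of these neighbours overlapped. RPS24, RPLP1 and RPS13 were next, at a mean over all libraries of 868, 686 and 566 TPM. These 5 genes held 25.7% of the summed TPM of all 80. The lowest at 10 CPM or more was RPS2 at 17.9 ± 4.05 TPM at 41.5 °C and 15.6 ± 0.680 TPM at 38.5 °C, with 60.4 to 101 CPM at 41.5 °C and 63.1 to 83.1 CPM at 38.5 °C. Its deposited values imply a length of 6374 bases, against a median of 707 bases for the 77 genes, so its TPM is low for its reads.

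The order of the genes by TPM was much the same in every library. Spearman's rho between the TPM of the 77 genes was at least 0.881 in each of the 15 pairs of libraries and 0.984 between the group means, given as a description over genes that share the libraries. The plot of TPM by gene shows each gene's spread within a group next to the range of the whole family. The summed TPM of large-subunit genes over that of small-subunit genes was 1.22, 1.17 and 1.08 in high-temperature replicates 1, 2 and 3, and 1.23, 1.17 and 1.08 in control replicates 1, 2 and 3. The mean ratio was 1.15 ± 0.0714 at 41.5 °C and 1.16 ± 0.0746 at 38.5 °C (SD, n = 3 each), and the groups overlapped. The difference of -0.0033 was 0.0349 without high-temperature replicate 3, 0.0314 without control replicate 1 and 0.0016 without control replicate 2, and it was -0.0358, -0.0089 and -0.0428 without high-temperature replicates 1 and 2 and control replicate 3. In both groups the ratio was highest in replicate 1, where the share of ribosomal protein reads was highest too.

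**Figure D3:**
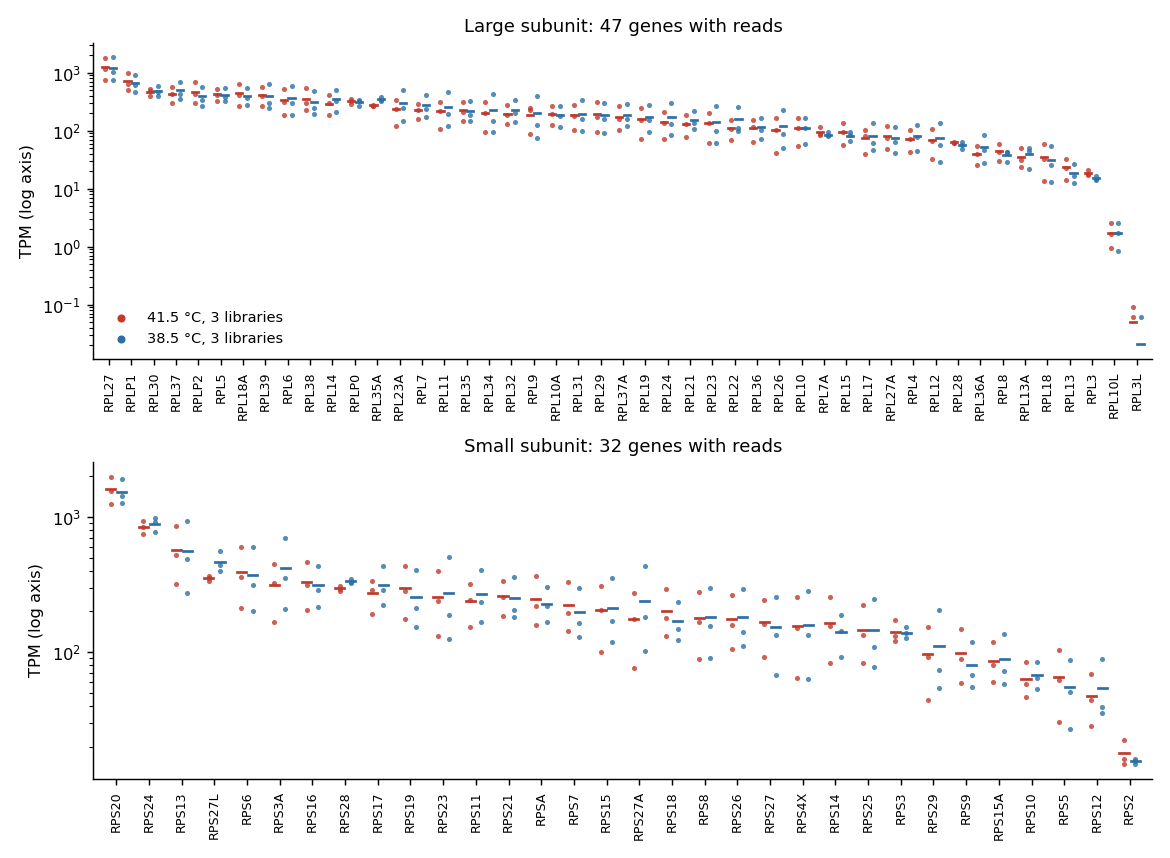
TPM on a log axis of the 47 large-subunit and 32 small-subunit genes with reads, with 1 point per library and a bar at the mean of each group, 41.5 °C left of 38.5 °C; libraries at 0 TPM (RPL3L) are not drawn. Genes run from RPS20 and RPL27 at over 1000 TPM to RPL10L and RPL3L at under 3 TPM, and the points of the groups overlap for nearly all genes.

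The stalk of the large subunit, which receives the elongation factors, showed both kinds of behaviour. RPLP0, its scaffold (chromosome 14, 40219196 to 40223943), had 291, 237 and 246 CPM at 41.5 °C, against 262, 266 and 265 CPM at 38.5 °C. All 6 libraries lay close together, and its pooled SD within groups, 0.11 on the log2 scale, was the lowest of the 77 genes. RPLP1, which dimerises with RPLP2 on that scaffold, had 398, 257 and 184 CPM at 41.5 °C, against 428, 245 and 179 CPM at 38.5 °C. RPLP2 had 232, 145 and 92.7 CPM at 41.5 °C, against 228, 114 and 86.8 CPM at 38.5 °C. The log2 fold change was -0.035 for RPLP0 (SE 0.18), -0.022 for RPLP1 (SE 0.38) and 0.13 for RPLP2 (SE 0.43). RPLP1 and RPLP2 thus varied more than 2-fold within each group while RPLP0 did not.

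Among the core proteins of the large subunit, RPL3, near the site of peptide bond formation, had 21.4, 17.9 and 15.6 CPM at 41.5 °C, against 17.7, 16.4 and 13.5 CPM at 38.5 °C. Its groups overlapped and its log2 fold change was 0.20 (SE 0.22). RPL5 and RPL11 bind the smallest ribosomal RNA of the large subunit and, when free, the p53 ligase MDM2. RPL5 had 406, 309 and 227 CPM at 41.5 °C, against 487, 288 and 235 CPM at 38.5 °C. RPL11 had 138, 94.9 and 42.9 CPM at 41.5 °C, against 235, 82.1 and 48.4 CPM at 38.5 °C. RPL11 spread further than RPL5, with an SD within groups of 1.02 against 0.485 on the log2 scale. RPL4, which reaches into the tunnel of the growing chain, had a log2 fold change of -0.33 (SE 0.50), and RPL39 and RPL23A, which line the tunnel and its exit, -0.09 (SE 0.47) and -0.51 (SE 0.57). RPL35, another exit protein, had -0.08 (SE 0.44), and RPL13A, which in human cells also represses translation after interferon gamma, -0.17 (SE 0.43). Each of these 5 genes was highest in control replicate 1 of all 6 libraries.

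In the small subunit, RPS2 and RPS3, at the entry of the mRNA, spread little. RPS3 had 109, 82.1 and 68.6 CPM at 41.5 °C, against 102, 93.8 and 74.4 CPM at 38.5 °C, and log2 fold changes were -0.06 (SE 0.24) for RPS3 and 0.10 (SE 0.24) for RPS2. RPS6, the substrate of the growth-regulated S6 kinases, had 450.0, 287 and 153 CPM at 41.5 °C, against 564, 247 and 171 CPM at 38.5 °C. RPSA, also known as the laminin receptor precursor, had 280.5, 168 and 112 CPM at 41.5 °C, against 275, 165 and 121 CPM at 38.5 °C. The groups overlapped for both, with log2 fold changes of -0.14 (SE 0.51) for RPS6 and -0.0029 (SE 0.40) for RPSA. RPS14 and RPS19, mutated or deleted in human anaemias of failing red cell production, had log2 fold changes of 0.11 (SE 0.48) and 0.06 (SE 0.48). RPS26, RPS27 and RPS29, small proteins of this subunit, had -0.19 (SE 0.51), -0.14 (SE 0.59) and -0.37 (SE 0.64).

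Of the genes made as fusions with ubiquitin or a ubiquitin-like protein, RPS27A had 128, 80.6 and 32.1 CPM at 41.5 °C, against 238, 82.4 and 44.5 CPM at 38.5 °C. Control replicate 1 held the highest value and high-temperature replicate 3 the lowest. The log2 fold change was -0.60 (SE 0.66), among the 3 lowest of the family with RPL22 and RPS3A. FAU, a fusion with a ubiquitin-like protein, falls outside the symbol rule. It was at 1082 ± 446 CPM at 41.5 °C and 983 ± 380 CPM at 38.5 °C (SD, n = 3 each).

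RPL22, an RNA-binding protein of the large subunit that cells can do without for most translation, had the lowest fold change of the family. It had 53.6, 36.6 and 21.9 CPM at 41.5 °C, against 107.6, 37.7 and 32.0 CPM at 38.5 °C. The groups overlapped, with control replicate 1 at about 3 times the other controls, and the log2 fold change was -0.66 (SE 0.51, edgeR adjusted p = 0.999923). RPS3A, which lies near the path of the mRNA out of the small subunit, had 295, 209.8 and 98.6 CPM at 41.5 °C, against 544, 227 and 128 CPM at 38.5 °C, and a log2 fold change of -0.58 (SE 0.56). At the other end, RPL13 had 24.9, 17.1 and 9.88 CPM at 41.5 °C, against 23.4, 12.4 and 9.03 CPM at 38.5 °C, and a log2 fold change of 0.21 (SE 0.43). RPL15 had 203, 136 and 85.3 CPM at 41.5 °C, against 149.6, 136 and 91.6 CPM at 38.5 °C. Its log2 fold change was 0.17 (SE 0.34) and its groups overlapped, as did those of RPL13.

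The 4 genes on the X chromosome did not stand apart. They are RPL10, the late-joining protein that completes the tRNA sites, RPL36A, RPL39 and RPS4X, whose human counterpart has a copy on the Y. RPS4X had 297, 172 and 67.4 CPM at 41.5 °C, against 385, 152 and 69.2 CPM at 38.5 °C. The log2 fold change was -0.15 (SE 0.52) for RPL10, -0.52 (SE 0.50) for RPL36A, -0.09 for RPL39 and -0.18 (SE 0.67) for RPS4X. Of the paralogs with tissue-restricted expression, RPL10L, a testis gene in human and mouse that replaces RPL10 in male germ cells, had 0.684, 1.18 and 1.67 CPM at 41.5 °C, against 0.731, 1.24 and 1.76 CPM at 38.5 °C. Among the replicates it was lowest where the other genes were highest, and it stayed at about 1 CPM.

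The size of the spread differed from gene to gene and did so alike in both groups. The SD within groups, pooled over both on log2 CPM, had a median of 0.762 for the 77 genes, against 0.304 for the 5646 other protein-coding genes at 10 CPM or more. It exceeded 0.812, the 95th percentile of those others, in 30 of the 77. A first principal component took 98.3% of the within-group variance of the 77 genes and 83.7% of that of the others. The fold of replicate 1 over replicate 3 had a median of 2.61 in the high-temperature libraries, against 0.984 for the other genes, and of 3.04 in the control libraries, against 1.04. It exceeded 2-fold for 62 genes (80.5%, against 12.4% of the others) at 41.5 °C and for 63 (81.8%, against 17.6%) at 38.5 °C.

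RPL9, RPL26 and RPL18 had the largest spreads, with SDs of 1.21, 1.21 and 1.17. RPL9, near the base of the stalk, had 232, 133 and 53.2 CPM at 41.5 °C, against 355, 115 and 56.5 CPM at 38.5 °C. Between replicates 1 and 3 that was 4.37-fold at 41.5 °C and 6.29-fold at 38.5 °C. RPL26, which in human cells also binds p53 mRNA, had 70.3, 43.0 and 16.4 CPM at 41.5 °C, against 118, 36.2 and 18.8 CPM at 38.5 °C. RPL18 on chromosome 6 had 33.9, 18.8 and 7.13 CPM at 41.5 °C, against 37.8, 14.3 and 7.04 CPM at 38.5 °C. All 3 genes had the order of libraries described above, with the lowest values in the replicates 3.

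At the other end 12 genes differed less than 2-fold between replicates 1 and 3 in both groups, 6 of each subunit. They were RPLP0, RPL3, RPL7A, RPL28, RPL30 and RPL35A, and RPS2, RPS3, RPS20, RPS24, RPS27L and RPS28. RPS24, needed for processing of the small subunit's RNA in human cells, had 348, 391.9 and 397 CPM at 41.5 °C, against 535, 354 and 403 CPM at 38.5 °C. RPL28 had 30.9, 29.0 and 25.5 CPM at 41.5 °C, against 26.4, 29.9 and 24.9 CPM at 38.5 °C. RPS20, the most abundant per length, had 774, 605 and 440.2 CPM at 41.5 °C, against 878, 549 and 468 CPM at 38.5 °C. These 12 genes, picked by their spread, had a median of 312 TPM against 188 TPM for the other 65, and an implied length of 738 against 707 bases. Of the 12, 8 had a log2 fold change below 0, as had 52 of the 65.

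Across the 77 genes the log2 ratio of replicate 1 to 3 in one group went with that in the other, with Pearson's r of 0.901 and Spearman's rho of 0.884, a description over genes measured in the same libraries. The 5646 other genes gave 0.857 and 0.888, so the likeness was not particular to ribosomal protein genes. The plot of both ratios shows the flat genes at the lower left and RPL9, RPL26 and RPS4X at the upper right.

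**Figure D4:**
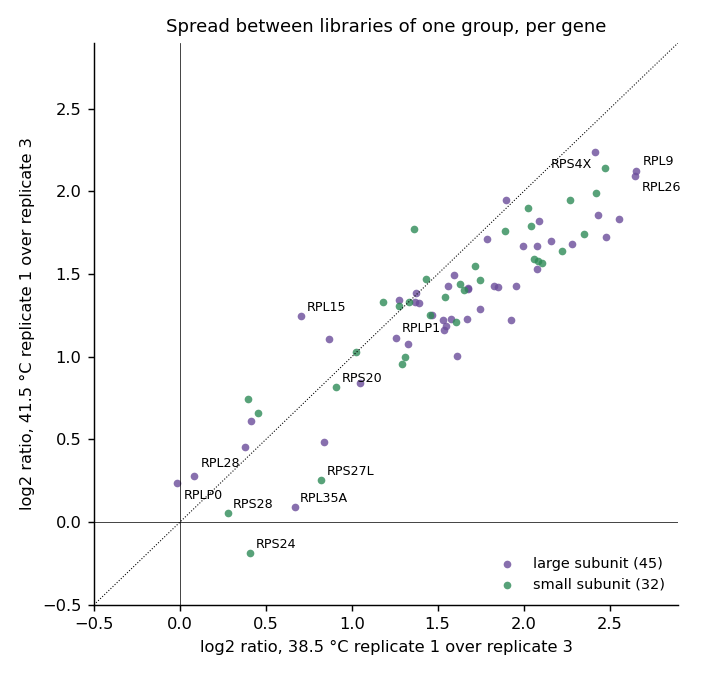
Log2 ratio of replicate 1 to replicate 3 at 41.5 °C (vertical axis) and at 38.5 °C (horizontal axis), with 1 point for each of the 77 genes at 10 CPM or more, coloured by subunit; the dotted line marks equal ratios. Genes with a large ratio in one group have a large one in the other, from RPLP0 and RPS24 near 0 to RPL9 and RPL26 above 2.

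Set against the mean of their own family, the genes had small point estimates of change between the temperatures. The deviation of each gene from the mean log2 CPM of the 77, high temperature minus control, lay within 0.5 for all 77. It was lowest for RPL22 (-0.43), RPS27L (-0.37) and RPS27A (-0.36) and highest for RPL13 (0.33), RPL3 (0.30) and RPS9 (0.28). RPS9, a protein of the small subunit's body, had 87.2, 51.6 and 31.4 CPM at 41.5 °C, against 81.9, 39.2 and 30.4 CPM at 38.5 °C. With library sizes set to the summed counts of the 80 genes, the smallest unadjusted edgeR p among them was 0.263, for RPL22.

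Other genes of translation were read from lists. Among 7 ribosomal proteins outside the symbol rule (FAU, RPL26L1, RPL7L1, RPL22L1, RPL36AL and RACK1 among them), 0 passed the test, 1 was above and 6 below 0, and the median log2 fold change was -0.25. RPL26L1, a paralog of RPL26, was at 181 ± 57.7 CPM at 41.5 °C and 214 ± 133 CPM at 38.5 °C. Of 18 tested elongation factors and other TOP mRNAs 0 passed, with 4 above and 14 below 0 and a median of -0.15. BTF3, which guides new protein chains as part of the nascent-chain complex, had 1654, 2094 and 1990.1 CPM at 41.5 °C, against 2600, 2691 and 2688 CPM at 38.5 °C. Its groups did not overlap (log2 fold change -0.48, SE 0.17, edgeR adjusted p = 0.999923). NPM1, a nucleolar chaperone, was at 1591 ± 204 CPM at 41.5 °C and 1749 ± 302 CPM at 38.5 °C, and TPT1, a growth-regulated TOP mRNA, at 540.1 ± 227 CPM at 41.5 °C and 525 ± 269 CPM at 38.5 °C. EEF1A1, the factor that delivers aminoacyl-tRNA, chosen here once its level was known, averaged 246 ± 50.0 CPM at 41.5 °C and 245 ± 49.9 CPM at 38.5 °C.

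Among 15 tested regulators of TOP mRNAs and of the mTORC1 kinase 0 passed, with 5 above and 10 below 0 and a median of -0.040. CNBP, which binds TOP mRNAs, was at 547 ± 156 CPM at 41.5 °C and 620 ± 189 CPM at 38.5 °C, LARP4 at 174 ± 48.4 CPM at 41.5 °C and 199 ± 58.3 CPM at 38.5 °C, and RHEB, the activator of mTORC1, at 89.9 ± 15.03 CPM at 41.5 °C and 109 ± 17.6 CPM at 38.5 °C. Of 32 ribosome assembly factors 0 passed, with 13 above and 19 below 0 and a median of -0.067. BRIX1 was at 1010 ± 166 CPM at 41.5 °C and 1208 ± 443 CPM at 38.5 °C, NOP58 at 482 ± 222 CPM at 41.5 °C and 533 ± 267 CPM at 38.5 °C, and LTV1 at 406 ± 102 CPM at 41.5 °C and 440 ± 131 CPM at 38.5 °C. RNA polymerase I genes (0 of 11 passed, 2 above and 9 below 0, median -0.13) included POLR1D at 332 ± 78.6 CPM at 41.5 °C and 343 ± 81.7 CPM at 38.5 °C, TAF1D at 262 ± 88.9 CPM at 41.5 °C and 356 ± 171 CPM at 38.5 °C, and TAF1A at 173 ± 36.8 CPM at 41.5 °C and 189 ± 31.1 CPM at 38.5 °C. In ribosome rescue and hibernation 0 of 14 passed, with 7 above and 7 below 0 and a median of 0.012, and NEMF, which tags stalled chains, was at 571 ± 79.1 CPM at 41.5 °C and 693 ± 168 CPM at 38.5 °C. SERBP1, which binds idle ribosomes, was at 552 ± 76.6 CPM at 41.5 °C and 525 ± 60.7 CPM at 38.5 °C, and HBS1L, which helps to free stalled ribosomes, at 223 ± 80.6 CPM at 41.5 °C and 285 ± 143 CPM at 38.5 °C (SD, n = 3 each). Of 75 tested mitochondrial ribosomal proteins 0 passed, with 13 above and 62 below 0 and a median of -0.23.

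The spread between replicates was not confined to the cytosolic ribosomal proteins, and its median was larger there than in each other list tried. The median fold of replicate 1 over 3 was 2.33 at 41.5 °C and 2.84 at 38.5 °C for the 7 ribosomal proteins outside the rule, and 2.15 at 41.5 °C and 2.31 at 38.5 °C for elongation factors and other TOP mRNAs. For assembly factors it was 1.71 at 41.5 °C and 1.92 at 38.5 °C, and for mitochondrial ribosomal proteins 1.68 at 41.5 °C and 1.86 at 38.5 °C. TOP regulators had 1.39 at 41.5 °C and 1.36 at 38.5 °C. Other protein-coding genes differed by length: with an implied length of up to 600 bases the median fold was 1.48 at 41.5 °C and 1.77 at 38.5 °C, and over 4000 bases it was 0.925 at 41.5 °C and 0.984 at 38.5 °C. Of the 77 ribosomal protein genes 60 have an implied length under 1000 bases, against a median of 3649 bases for the other genes. For other genes from 600 to 1000 bases the median fold was 1.28 at 41.5 °C and 1.40 at 38.5 °C, below the 2.61 at 41.5 °C and 3.04 at 38.5 °C of the ribosomal protein genes. The plot of list medians sets these values side by side.

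**Figure D5:**
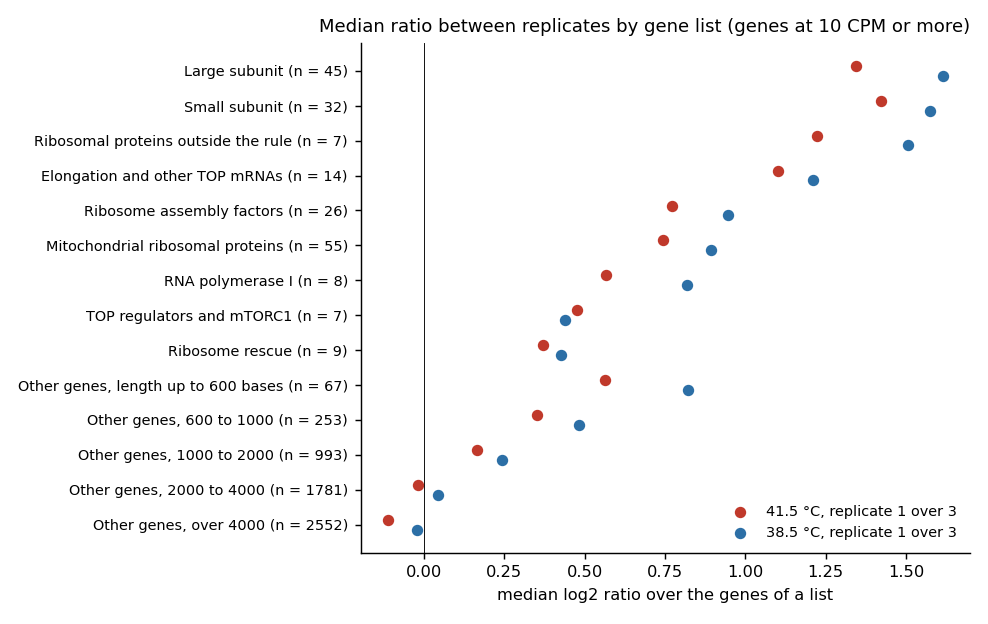
Median log2 ratio of replicate 1 to replicate 3 over the genes of each list at 10 CPM or more, at 41.5 °C (red) and at 38.5 °C (blue), with the number of genes n beside each name; the last 5 rows hold other protein-coding genes by implied length in bases. Both subunits lie furthest right, at log2 ratios of 1.34 and 1.42 at 41.5 °C and 1.61 and 1.57 at 38.5 °C.

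Of other measures of the libraries, RN18S, the RNA of the small subunit, which lacks a poly(A) tail, had 218, 422 and 968 CPM in high-temperature replicates 1, 2 and 3, against 105, 347 and 554 CPM in control replicates 1, 2 and 3. It was thus lowest where ribosomal protein mRNAs were highest, in both groups. The mitochondrially encoded mRNAs took 26.7%, 24.9% and 23.8% of counts at 41.5 °C, against 23.6%, 21.0% and 21.5% at 38.5 °C, without overlap between the groups, and control replicate 2 was the lowest library. The TMM scaling factor was 1.01, 1.005 and 1.09 in the high-temperature libraries and 0.865, 0.9996 and 1.04 in the control libraries, highest in replicate 3 of each group. The part of these measures in the spread was not tested.

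The genes nearest in pattern to the ribosomal protein mean were not of the ribosome, though they were picked from 5646 genes against 77 of the family. Likeness was measured as the root mean square difference, over the 6 libraries, between a gene's centred log2 CPM and the centred mean of the 77. The nearest protein-coding gene was ETF1, the translation termination factor, at 0.033, with 472, 317 and 195 CPM at 41.5 °C, against 579, 312 and 204 CPM at 38.5 °C. STAG2, a cohesin subunit, followed at 0.039, and then CEP85L, POLR2B, BTAF1, SRSF3, EIF3A, MALT1, URI1 and CEBPZ, the last at 0.053. The nearest ribosomal protein gene was RPL35 at 0.061. The median difference was 0.189 for the 77 ribosomal protein genes and 0.594 for the other genes. The mean was taken over these same 77 genes, so their smaller difference is partly built in.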

How the data were processed

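The authors deposited unscaled whole-number read counts per gene of 6 libraries, per the file headers. The authors also deposited FPKM and TPM values, and a coverage signal per gene that was not used. Per the submitters' processing notes the build was Sscrofa11.1 and the tools included StringTie 2.1.3b, HISAT2 2.1.0, HISAT, Bowtie2 and Trimmomatic 0.38. The counting tool is not given in the sources used, so reads shared by overlapping genes or close copies may lie with either, and 14 of the 80 genes overlap another counted gene. Per the labels' protocols the kit was SMART-Seq v4, which does not mark strand. Columns of the series table were assigned by title and checked against each sample's own FPKM, equal within 1e-05 for 99.921% to 99.934% of genes in their own column. No 2 libraries of a group held the same counts. The 24 genes with no symbol (0.527% to 0.658% of counts) are mitochondrial RNAs, kept in the test and left out in an alternative.

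The test was the quasi-likelihood test of edgeR 4.0.16 (R 4.3.3) with TMM, the default expression filter and group alone in the model, adjusted by Benjamini-Hochberg over 16056 genes at 0.05. CPM uses TMM-scaled library sizes, and log2 CPM a prior count of 2. Implied length is the length at which a gene's counts give its FPKM. The members and lists were chosen with earlier results of these data known, so lists are described by counts and medians with no test. Named genes were a fixed set of 29 symbols (RPL39L was not analysed here) and those extreme in level, fold change, p, spread or deviation, RPL36A among the 5 smallest p. Alternatives were DESeq2 1.42.0, other scalings and filters, limma 3.58.1 on log2 FPKM or TPM with pseudocounts of 1 and 0.1, a replicate block, and leaving out each library. In each list of translation genes but the mitochondrial ribosomal proteins, which were counted by symbol, the 3 with the highest mean CPM were named, except 1 gene that is not reported here.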

Additional observations from a re-analysis of the deposited data

How the results depend on the processing

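No ribosomal protein gene was called under any alternative. Over all genes, 3 were called with the replicate number as a block, 5 with DESeq2 and 1 with no filter on low counts. On log2 FPKM the number below 0 was 36 and 35 with pseudocounts of 1 and 0.1 (medians 0.018 and 0.018), and on log2 TPM 38 and 37 (0.015 and 0.015), or 38 with no filter (0.016). The medians over all genes tested were 0.033 and 0.042 on log2 FPKM, 0.039 and 0.048 on log2 TPM, and 0.021 with no filter. Leaving out each library gave 5 to 75 genes below 0 and medians of -0.56 to 0.40, a share difference of -0.207 to 0.206 percentage points and a ratio difference of -0.0428 to 0.0349. The share difference was 0.0197 with mitochondrial and unnamed genes left out of the total. The cause was not tested. Of 40 named genes tested, 5 (RPL3, RPL28, RPL35A, RPS27L and RPS28) kept their sign in all 20 alternatives. Libraries numbered 1 and 3 deviated together between the groups, and those numbered 2 did not. The correlations, over tested genes at 10 CPM or more, were 0.78, -0.063 and 0.85 for numbers 1, 2 and 3. High-temperature replicate 2 correlated best with control replicate 1, at only 0.251, so number 2 cannot decide whether the numbers are pairs. No label says that a number marks a shared culture, so the main test left them unpaired and the block was an alternative. The standard error with the block was 0.18 for RPL22, against 0.51 without it, and 0.11 for RPLP0, against 0.18. With the block the median was -0.076, with 22 genes above and 56 below 0, 9 of 78 at an unadjusted p below 0.05, beside 1485 of 16056 genes tested, and a smallest adjusted p of 0.413 (RPS27L). Depth limits RPL3L and RPL10L.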

Other observations

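The table held 66 further genes described as cytosolic ribosomal proteins outside the symbol rule, 60 of them with locus names and 24 of those pseudogenes. Adding all of them to the sum gave a share of 1.12 ± 0.410% of counts at 41.5 °C and 1.13 ± 0.478% at 38.5 °C (SD, n = 3 each). The most abundant locus-named copy, LOC100624650, an RPL9 pseudogene, had 464, 244 and 100 reads in the high-temperature libraries and 657, 148 and 118 reads in the control libraries, the same order of libraries as RPL9 itself. LOC100519675, an RPL35A copy and 1 of the 66, had 56, 56 and 69 reads at 41.5 °C and 105, 85 and 90 reads at 38.5 °C. The groups did not overlap in these unscaled reads, beside 4.05% of all genes tested that were apart and lower in CPM. The copy may share reads with RPL35A, so it is not a separate observation. LOC100523874, an RPLP1 pseudogene, had 176, 0 and 117 reads at 41.5 °C and 177, 104 and 0 reads at 38.5 °C, while a further RPLP1 pseudogene, LOC100625510, had 158, 79 and 59 reads at 41.5 °C and 103, 72 and 59 reads at 38.5 °C. A count of 0 in single libraries, at over 100 reads in others of the same group, was not seen for RPLP1. Near-identical copies can take each other's reads, and how the counting treated them is not stated in the sources used.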
